A study of Bos taurus with 10 samples.

Results

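The 10 genes described here come from a run of bovine Ensembl identifiers, ENSBTAG00000043544 to ENSBTAG00000043586, given as the genes of the mitochondrial genome. The deposited skin table held 15 identifiers of that run among its 7052 genes, and the 10 with the largest CPM summed over all 10 libraries were kept. CPM is a gene's count per 1000000 counts of its library's table total. The 10 are called the members, and the 15 the block. The gene table at hand, of assembly ARS-UCD2.0, carried no Ensembl identifier, so 0 of the 15 were paired with a symbol, a position or a length. The mitochondrial label was therefore not checked on the data, and no member can be given a role, an RNA class or a protein. The same gene table lists 13 protein-coding genes, 2 rRNA genes and 22 tRNA genes on the mitochondrial chromosome. A block of 15 identifiers is thus as many as the protein-coding and rRNA genes together, which does not show which genes they are.

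As background, the mammalian mitochondrial genome is a small circle present in many copies per cell. It encodes core subunits of the respiratory chain complexes and of ATP synthase, the ribosomal RNAs of the mitochondrial ribosome, and the tRNAs needed to translate them. Each strand is transcribed as a long precursor that is cut into single RNAs, so the level of each RNA depends on its processing and stability as well as on transcription. All other subunits of these complexes come from nuclear genes. In skin, mitochondria supply ATP to keratinocytes, hair follicles and sweat glands.

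The 10 libraries were made from RNA of skin biopsies kept in RNAlater from Brangus cattle, a composite of Brahman and Angus ancestry, with a kit that does not keep the strand. The series compares heat-stressed with control animals, but its labels contradict each other. The 5 libraries titled Ctrl are entered as the heat-stress case group, and the 5 titled Strs as the control group. They are called Ctrl-titled and Strs-titled below, fold changes divide the Strs-titled by the Ctrl-titled level, and which set was heated is unknown. Age, sex, temperature and length of exposure are not given in the labels used here. Nor do they state that every library is a separate animal, so p-values measure only the spread between these samples.

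Table totals ran from 490752 to 659756 counts in the Ctrl-titled group and from 2453542 to 8051190 in the other. One read equalled 1.52 to 2.04 CPM in Ctrl-titled libraries, against 0.124 to 0.408 CPM in Strs-titled ones. The table covers only some bovine genes, so these totals are not sequencing depths. Groups, table totals and the PA numbers of the titles divide the libraries alike, so effects of heat, library preparation and read processing cannot be told apart. Within bulk samples, fewer cells rich in mitochondria and less mitochondrial RNA per cell cannot be told apart either.

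The members took a larger share of every Strs-titled library than of any Ctrl-titled library. In Ctrl-titled replicates 1 to 5 they took 0.538%, 0.647%, 0.433%, 0.635% and 1.67% of the table total. The shares in Strs-titled replicates 1 to 5 were 6.82%, 3.11%, 4.03%, 4.14% and 5.52%. The groups did not overlap, and the lowest Strs-titled share was 1.87 times the highest Ctrl-titled share. Means were 0.784% ± 0.501 (SD, n = 5) and 4.73% ± 1.46 (SD, n = 5), a 6.03-fold difference. No test is given for this sum, because its members were chosen by their level.

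Ctrl-titled replicate 5 stood above the other 4 libraries of its group. Its title holds PA number 16, against 1, 2, 3 and 5 for the others, and a part of this in its level was not tested. Without it the Ctrl-titled mean was 0.563% ± 0.0997 (SD, n = 4) and the difference 8.39-fold. That library also had the highest table total of its group, and its 10 most abundant genes took 17.0% of its counts, against 24.4% to 31.4% in the other 4. In the Strs-titled libraries the 10 most abundant genes, which included 0 to 4 members, took 7.55% to 10.4%, so this share also differed between the groups without overlap. Taken against the total outside the 15 highest genes of each library, the difference in mean member share was 4.33 percentage points, against 3.94 for the whole table. This is a difference in points, and the fold on that total is not given. A smaller total raises every share, so the larger number of points does not show that the difference held or grew. The 15 highest genes included members: ENSBTAG00000043560 ranked from 1 to 12 in every Strs-titled library. Counting error was small beside the spread: the exact Clopper-Pearson 95% interval ran from 0.416% to 0.451% in Ctrl-titled replicate 3 and from 6.80% to 6.84% in Strs-titled replicate 1. Intervals cover counting error only.

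**Figure D1:**
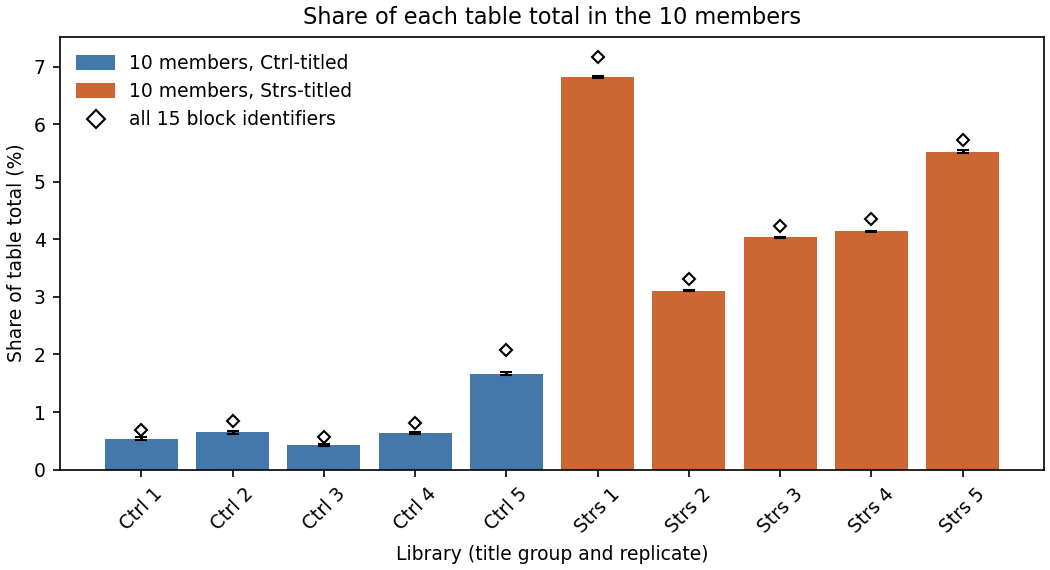
Share of the table total (%, vertical axis from 0) taken by the 10 members in each library (bars, with exact 95% counting intervals) and by all 15 block identifiers (open diamonds). All 5 Strs-titled bars (3.11% to 6.82%) stand above the highest Ctrl-titled bar, replicate 5 at 1.67%.

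Choosing genes by CPM summed over all libraries can favour genes that are high in 1 group, so the 5 identifiers left out are given beside the members. They took 0.215% ± 0.115 (SD, n = 5) of Ctrl-titled totals, against 0.232% ± 0.0598 (SD, n = 5) of Strs-titled totals, with overlapping ranges. All 15, picked by identifier alone from those in the table, took 0.559% to 2.08% of Ctrl-titled and 3.31% to 7.16% of Strs-titled totals. The run spans 43 identifier numbers, and any gene of it that the table left out could not be counted. Their means, 0.999% ± 0.616 (SD, n = 5) and 4.96% ± 1.5 (SD, n = 5), differed 4.96-fold, against 6.03-fold for the members. The summed CPM of the last member kept, ENSBTAG00000043558, was 16814, and that of the first left out, ENSBTAG00000043563, was 8924.

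Between 1 and 5 members ranked among the 100 most abundant genes of a Ctrl-titled library, and 9 or all 10 did so in a Strs-titled library. Ctrl-titled replicate 5 was the library with 5, and the others of its group had 1 or 2. The members were kept by their summed CPM, which favours high ranks. Of all 15 block identifiers, 2 to 6 ranked there in a Ctrl-titled library, against 9 or 10 in a Strs-titled library. A member was the most abundant gene of the whole table in 2 libraries. These were ENSBTAG00000043560 in Strs-titled replicate 4 and ENSBTAG00000043570 in Strs-titled replicate 5.

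Across the whole table, 67.8% of 7047 tested genes differed between the groups (adjusted p under 0.05 by the quasi-likelihood test of edgeR), 35.6% being higher and 32.2% lower in Strs-titled libraries. Of the 10 members, 9 rose and 1, ENSBTAG00000043561, did not pass the test. Of the 15 block identifiers, 11 rose, 1 fell and 3 did not pass. The median log2 fold change was 3.32 over the members, 1.99 over the block and 0.11 over all tested genes. An 8-fold or larger rise was estimated and called for 5 members, against 3.49% of all tested genes. The members' counts share the selection by level described above. Those of the block share only the choice of genes made for the deposited table. Because most genes of the table differed, the zero point of these fold changes rests on the scaling. Upper quartile factors moved the median of all genes from 0.11 to 0.27, and under them 10 members and 12 block identifiers rose.

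**Figure D2:**
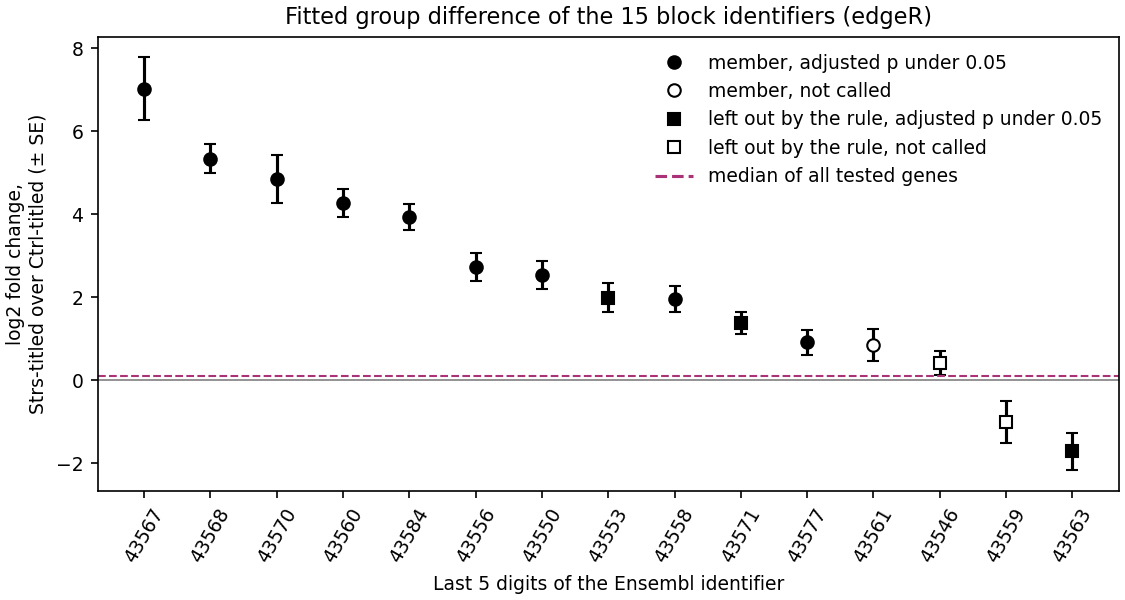
Log2 fold change of each block identifier, Strs-titled over Ctrl-titled, with its standard error (vertical axis), ordered from highest to lowest. Filled symbols passed the test, open ones did not, squares were left out of the members; estimates run from 7.03 down to -1.72 around a median of 0.11 for all tested genes.

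The largest rise was that of ENSBTAG00000043567. It had 14.3, 14.6, 11, 37.7 and 78.8 CPM in Ctrl-titled replicates 1 to 5, from 6 to 52 counts. In Strs-titled replicates 1 to 5 it had 8118, 2156, 2875, 1486 and 7892 CPM. Every Strs-titled library was at least 18.9 times above every Ctrl-titled one, with replicates 1 and 5 the highest of the Strs-titled group. It rose by 7.03 on the log2 scale (SE 0.75, edgeR adjusted p = 8.7e-06), and 4 of the 7047 tested genes, this one included, had a fold change as large. Without Ctrl-titled replicate 5, its highest library of that group, the rise was 7.72 on the log2 scale. Its Ctrl-titled level rests on few reads: the 6 counts of replicate 3 have an exact Poisson 95% interval of 2.20 to 13.1 counts.

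ENSBTAG00000043568 rose in every Strs-titled library to nearly the same level. Its CPM was 73.4, 40.1, 45.7, 70.2 and 153 in Ctrl-titled replicates 1 to 5, from only 22 to 101 counts. It was 3627, 2395, 3696, 3573 and 3469 in Strs-titled replicates 1 to 5, where only replicate 2 was set apart, on the low side. With a coefficient of variation of 16.2% over the Strs-titled libraries it was the steadiest member there. It rose by 5.34 on the log2 scale (SE 0.35, edgeR adjusted p = 2.7e-08), with 13 of the tested genes at or above it.

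ENSBTAG00000043570 was the most variable member in Strs-titled libraries. Ctrl-titled replicates 1 to 5 held 181, 157, 108, 125 and 355 CPM. Strs-titled replicates 1 to 5 held 8730, 2170, 3107, 2587 and 12451 CPM, a 5.74-fold range. Replicates 1 and 5 were again the high ones, and the groups did not overlap. It rose by 4.84 on the log2 scale (SE 0.58, edgeR adjusted p = 1.5e-05).

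ENSBTAG00000043560 and ENSBTAG00000043584 rose by similar amounts and kept a similar ratio to each other. ENSBTAG00000043560 had 324, 325, 241, 348 and 829 CPM in Ctrl-titled replicates 1 to 5, and 10924, 6494, 7890, 9365 and 8482 in Strs-titled replicates 1 to 5. It was the third most abundant gene of the table by Strs-titled mean, and the 258th by Ctrl-titled mean. It rose by 4.28 on the log2 scale (SE 0.33, edgeR adjusted p = 8.8e-08). ENSBTAG00000043584 had 153 to 553 CPM in the Ctrl-titled group, against 3446 to 5936 in the Strs-titled group, with a log2 fold change of 3.93 (SE 0.32, edgeR adjusted p = 1.2e-07). Per read of ENSBTAG00000043560 there were 0.636 to 0.916 reads of ENSBTAG00000043584 in Ctrl-titled libraries, against 0.531 to 0.609 in Strs-titled ones. That ratio was lower in all 5 Strs-titled libraries, by far less than either gene's own change.

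A middle tier of 3 members rose less, with groups that did not overlap. ENSBTAG00000043556 averaged 590 CPM ± 368 (SD, n = 5) in the Ctrl-titled group, against 4195 CPM ± 1056 (SD, n = 5) in the Strs-titled group (log2 fold change 2.72, edgeR adjusted p = 5.7e-06). ENSBTAG00000043550 averaged 509 CPM ± 336 (SD, n = 5) and 3186 CPM ± 681 (SD, n = 5; log2 fold change 2.54, edgeR adjusted p = 9.5e-06). ENSBTAG00000043558 averaged 644 CPM ± 365 (SD, n = 5) and 2719 CPM ± 793 (SD, n = 5; log2 fold change 1.97, edgeR adjusted p = 6.7e-05). In this last gene Strs-titled replicate 2, at 1525 CPM, lay just above Ctrl-titled replicate 5, at 1287 CPM.

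The remaining 2 members were the most abundant ones in Ctrl-titled libraries, and their groups overlapped. ENSBTAG00000043561 had 2404, 2943, 2011, 3115 and 8370 CPM in Ctrl-titled replicates 1 to 5. It had 13842, 5728, 5331, 6130 and 5483 CPM in Strs-titled replicates 1 to 5. Ctrl-titled replicate 5 exceeded 4 of the 5 Strs-titled libraries, and Strs-titled replicate 1 exceeded all others. The log2 fold change of 0.85 (SE 0.39) missed the threshold (edgeR adjusted p = 0.0655). Without Ctrl-titled replicate 5 it was 1.37 and passed (edgeR adjusted p = 0.00123). Upper quartile factors (adjusted p = 0.0323), no scaling factors (0.0490), limma voom (0.0362) and leaving out Strs-titled replicate 3 (0.0434) also put it past the threshold, and over all 19 alternatives the adjusted p was 0.00123 to 0.197. ENSBTAG00000043577 averaged 1328 CPM ± 798 (SD, n = 5) in the Ctrl-titled group, against 2696 CPM ± 510 (SD, n = 5) in the Strs-titled group. It rose by 0.91 on the log2 scale (SE 0.30, edgeR adjusted p = 0.0151), and 1.34 without Ctrl-titled replicate 5, whose 2709 CPM lay above 3 of the 5 Strs-titled libraries.

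In all, the CPM ranges of the 5 and 5 libraries did not overlap for 8 of the 10 members and for 10 of the 15 block identifiers. In each of these the Strs-titled group was the higher. Over all tested genes 53.5% had groups that did not overlap, with the Strs-titled group higher in 30.1% and lower in 23.4%.

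**Figure D3:**
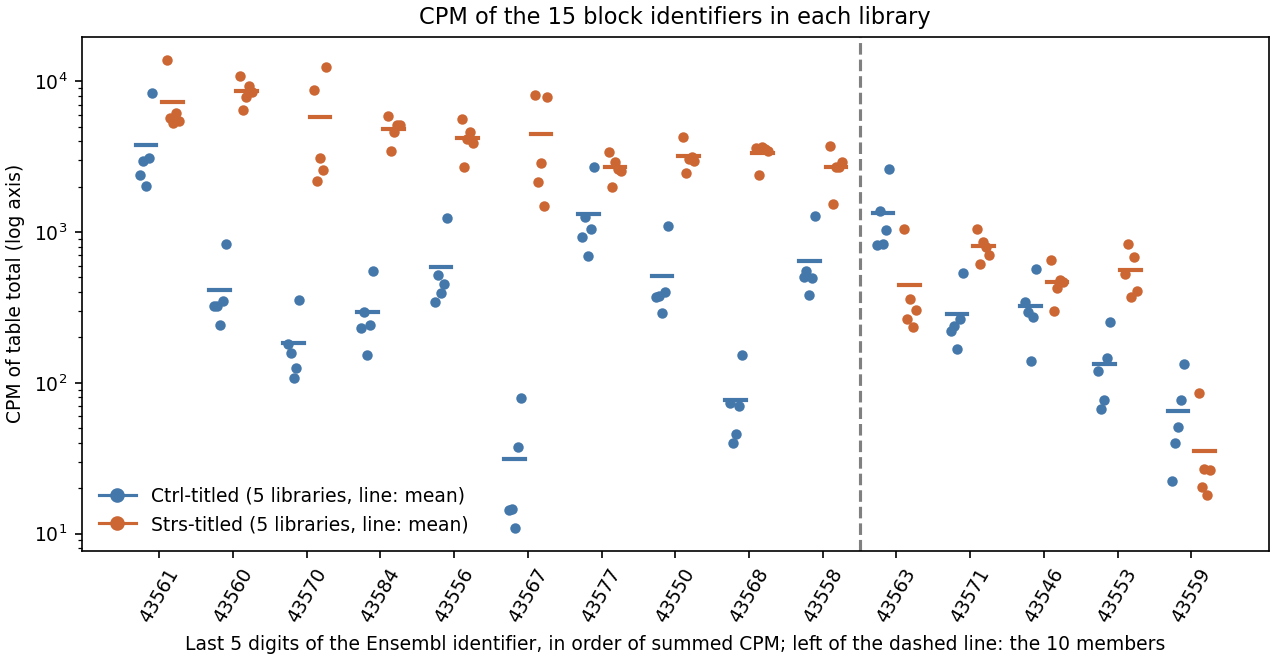
CPM of the table total (vertical log axis) of each block identifier in the 5 Ctrl-titled and 5 Strs-titled libraries (points) with group means (lines); the 10 members stand left of the dashed line. ENSBTAG00000043567 is furthest apart, at 11 to 78.8 against 1486 to 8118 CPM, and ENSBTAG00000043561 overlaps.

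The 5 identifiers left out by the rule split in direction. ENSBTAG00000043563 fell: it had 819, 1388, 829, 1030 and 2639 CPM in Ctrl-titled replicates 1 to 5. In Strs-titled replicates 1 to 5 it had 1049, 267, 362, 235 and 306 CPM. Replicate 1 was the only Strs-titled library within the Ctrl-titled range. On the log2 scale the change was -1.72 (SE 0.45, edgeR adjusted p = 0.00522), and -2.25 without Strs-titled replicate 1. ENSBTAG00000043553 rose by 1.99 on the log2 scale (edgeR adjusted p = 0.000203), with 67.5 to 253 CPM in the Ctrl-titled group, against 371 to 836 in the Strs-titled group. Its highest library was Strs-titled replicate 2, the lowest of its group for the summed members. ENSBTAG00000043571 rose by 1.39 on the log2 scale (edgeR adjusted p = 0.000304), with 168 to 538 CPM against 618 to 1057 CPM.

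The other two did not pass the test in the fit of all 10 libraries. ENSBTAG00000043546 had a log2 fold change of 0.41 (edgeR adjusted p = 0.222), and 0.71 without Ctrl-titled replicate 5 (edgeR adjusted p = 0.0250). ENSBTAG00000043559, the lowest of the block by CPM summed over all libraries and at 11 to 88 counts in a Ctrl-titled library, had a log2 fold change of -1.0 (edgeR adjusted p = 0.0979). It passed without Ctrl-titled replicate 1, at -1.21 (edgeR adjusted p = 0.0495), and without Strs-titled replicate 1, at -1.58 (edgeR adjusted p = 0.00238).

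Ratios of reads within a library do not depend on its total or scaling, and they also differed between the groups. As a share of the 10-member counts, ENSBTAG00000043561 took 44.7%, 45.5%, 46.5%, 49.1% and 50.2% in Ctrl-titled replicates 1 to 5. In Strs-titled replicates 1 to 5 it took 20.3%, 18.4%, 13.2%, 14.8% and 9.93%. ENSBTAG00000043577 went from a mean of 17.1% ± 1.35 (SD, n = 5) to 5.92% ± 1.08 (SD, n = 5), and ENSBTAG00000043558 from 8.45% ± 0.680 (SD, n = 5) to 5.78% ± 0.787 (SD, n = 5). For these 3 members every Strs-titled share was below every Ctrl-titled share.

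For 5 members every Strs-titled share of the 10-member counts was above every Ctrl-titled share. ENSBTAG00000043560 took 5.41% ± 0.435 (SD, n = 5) in the Ctrl-titled group, against 18.9% ± 3.13 (SD, n = 5) in the Strs-titled group. ENSBTAG00000043584 took 3.92% ± 0.529 (SD, n = 5) and 10.6% ± 1.54 (SD, n = 5). ENSBTAG00000043568 took 1.01% ± 0.273 (SD, n = 5) and 7.42% ± 1.61 (SD, n = 5). ENSBTAG00000043570 took 1.97% to 3.37% and then 6.25% to 22.5%. ENSBTAG00000043567 took 0.225% to 0.594% and then 3.59% to 14.3%. The shares of ENSBTAG00000043556 and ENSBTAG00000043550 overlapped, with means of 7.62% and 9.09% for the former and 6.47% and 6.95% for the latter. Shares of 1 sum are tied to each other, since a gain in some members lowers the others. ENSBTAG00000043567, ENSBTAG00000043568 and ENSBTAG00000043570 were kept through their Strs-titled level, so the rule favours their gain and the others' loss. Among the identifiers left out, ENSBTAG00000043563, ENSBTAG00000043571, ENSBTAG00000043546 and ENSBTAG00000043559 were lower in every Strs-titled library, relative to the 10-member counts. ENSBTAG00000043553 overlapped between the groups.

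For 9 of the 10 members the coefficient of variation of this share was smaller over the Ctrl-titled than over the Strs-titled libraries, although the former had fewer reads; ENSBTAG00000043568 was the exception. Ctrl-titled replicate 5, with a share of the table total far above the others, had a make-up near theirs but just outside their range in some members. Its share of the 10-member counts in ENSBTAG00000043560 was 4.97%, against 5.01% to 6.02% in the other 4 libraries. In ENSBTAG00000043561 it was 50.2%, against 44.7% to 49.1%, and in ENSBTAG00000043584 3.32%, against 3.55% to 4.59%. In ENSBTAG00000043558 it was 7.72%, against 7.86% to 9.36%.

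**Figure D4:**
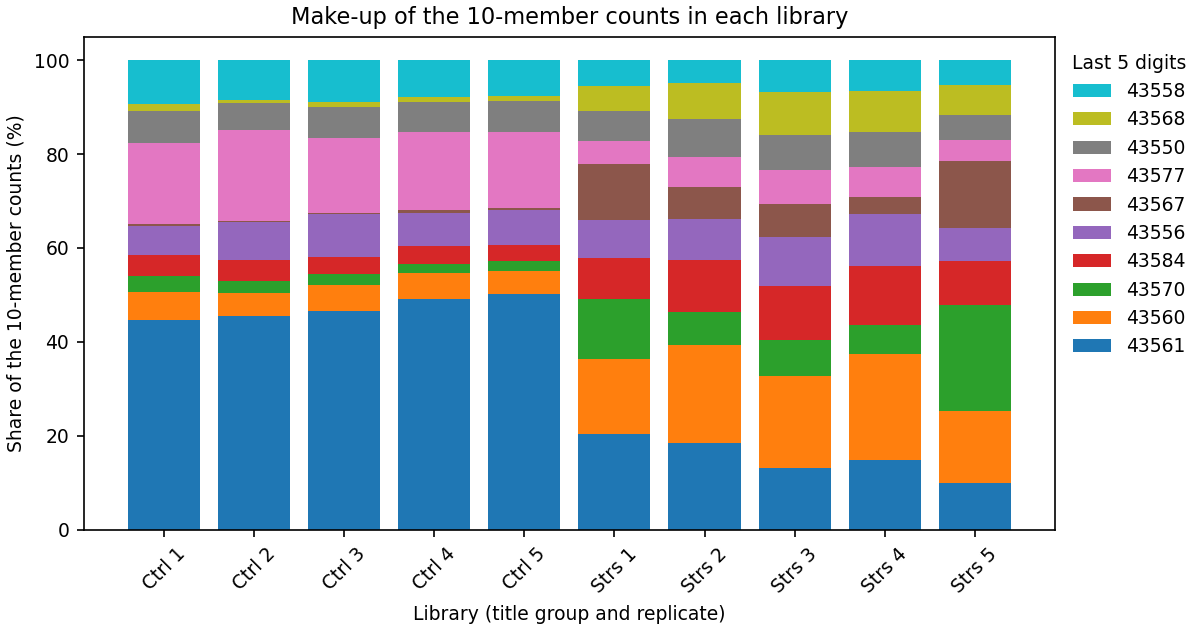
Share of the 10-member counts (%, vertical axis) taken by each member in each library, stacked to 100%. The lowest segment, ENSBTAG00000043561, takes 44.7% to 50.2% of Ctrl-titled bars, against 9.93% to 20.3% of Strs-titled ones.

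The leading members of the groups by mean CPM, ENSBTAG00000043560 and ENSBTAG00000043561, are 1 such pair, chosen like the pairs after it once the values were seen. Per read of the latter there were 0.135, 0.110, 0.12, 0.112 and 0.0991 reads of the former in Ctrl-titled replicates 1 to 5. There were 0.789, 1.13, 1.48, 1.53 and 1.55 in Strs-titled replicates 1 to 5, a mean 11.3 times higher. Reads of ENSBTAG00000043568 per read of ENSBTAG00000043561 were 0.0136 to 0.0305 in the Ctrl-titled group, against 0.262 to 0.693 in the Strs-titled group, a mean 24.0 times higher. In the left-out gene ENSBTAG00000043563 the ratio to ENSBTAG00000043561 went the other way, at 0.315 to 0.471 in the Ctrl-titled group, against 0.0384 to 0.0758 in the Strs-titled group. ENSBTAG00000043577 kept to ENSBTAG00000043561 in both groups: 0.364 ± 0.0418 (SD, n = 5) and 0.407 ± 0.114 (SD, n = 5) reads per read, with overlapping ranges. The genes of the block thus differed from each other in their change, whatever the scaling.

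In order of mean CPM, the Ctrl-titled libraries ranked the members as ENSBTAG00000043561, ENSBTAG00000043577, ENSBTAG00000043558, ENSBTAG00000043556, ENSBTAG00000043550, ENSBTAG00000043560, ENSBTAG00000043584, ENSBTAG00000043570, ENSBTAG00000043568 and ENSBTAG00000043567. This is an order of reads per gene, not of transcripts, because gene lengths were not used here. Places 1, 2 and 6 to 10 were held by the same member in all 5 libraries. Places 3 to 5 changed hands among ENSBTAG00000043558, ENSBTAG00000043556 and ENSBTAG00000043550, whose means differed by 1.09 and 1.16 times between neighbours, less than their spread. Those neighbours kept the order of the means in 4 of 5 libraries.

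The Strs-titled order was ENSBTAG00000043560, ENSBTAG00000043561, ENSBTAG00000043570, ENSBTAG00000043584, ENSBTAG00000043567, ENSBTAG00000043556, ENSBTAG00000043568, ENSBTAG00000043550, ENSBTAG00000043558 and ENSBTAG00000043577. Neighbours in it differed by 1.01 to 1.3 times, and the ranges of CPM overlapped for all 9 neighbouring pairs. In 2 of those pairs all 5 libraries kept the order of the means: ENSBTAG00000043556 above ENSBTAG00000043568, and ENSBTAG00000043550 above ENSBTAG00000043558. The complete order was different in each of the 5 Strs-titled libraries, against 3 different orders in the Ctrl-titled group. First place went to ENSBTAG00000043560 in 3 libraries, to ENSBTAG00000043561 in replicate 1 and to ENSBTAG00000043570 in replicate 5.

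No member held the same place in both group orders. Of the 45 pairs of members, 27 stood in opposite order in the group means. For 12 pairs the order was 1 way in all 5 Ctrl-titled libraries and the other way in all 5 Strs-titled libraries. ENSBTAG00000043577 was at place 2 in the Ctrl-titled and place 10 in the Strs-titled order, and ENSBTAG00000043560 at places 6 and 1. The rule bears on these counts. ENSBTAG00000043567, ENSBTAG00000043568 and ENSBTAG00000043570 averaged 31.3, 76.5 and 185 CPM in Ctrl-titled libraries. The left-out ENSBTAG00000043563, ENSBTAG00000043546 and ENSBTAG00000043571 averaged more there, at 1341, 324 and 286 CPM. The former were thus kept through their Strs-titled level, and the reversals describe the chosen members only.

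Within the Strs-titled group ENSBTAG00000043567 and ENSBTAG00000043570 were both highest in replicates 1 and 5, and varied more than the other 8 members together. This pair was chosen once the values were seen, from members kept through their Strs-titled level. Together they took 1.68%, 0.433%, 0.598%, 0.407% and 2.03% of the table total in Strs-titled replicates 1 to 5, a 4.99-fold range. The other 8 took 5.14%, 2.68%, 3.43%, 3.73% and 3.49%, a 1.92-fold range. They too were highest in replicate 1. There ENSBTAG00000043561 was 2.44 times the mean of the other 4 libraries, against 1.72 times for ENSBTAG00000043570. Per read of the other 8, the pair had 0.328 reads in replicate 1 and 0.583 in replicate 5, and 0.109 to 0.174 in replicates 2 to 4. The Ctrl-titled libraries had 0.0263 to 0.0377, below all Strs-titled values. Reads of ENSBTAG00000043567 per read of ENSBTAG00000043570 ran from 0.0787 to 0.301 in Ctrl-titled libraries, against 0.575 to 0.993 in Strs-titled ones. In replicate 5, ENSBTAG00000043570 and ENSBTAG00000043567 were 3.0 and 2.16 times the mean of the other 4 libraries, and the other 8 members were 0.707 to 1.10 times that mean. Replicate 5 also had the lowest table total of its group, and the part of that in this ratio was not tested. With Strs-titled replicates 1 and 5 both left out, the log2 fold changes of ENSBTAG00000043570 and ENSBTAG00000043567 were 3.78 and 6.06, and both stayed past the threshold.

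Strs-titled replicate 1 was above its group mean in all 10 members and in 14 of the 15 block identifiers, ENSBTAG00000043553 being the exception. It was highest, relative to the other 4 libraries, in the 3 identifiers ENSBTAG00000043559 (3.77 times), ENSBTAG00000043563 (3.59 times) and ENSBTAG00000043561 (2.44 times). Each of those made up a smaller share relative to the 10-member counts in Strs-titled than in Ctrl-titled libraries. So did ENSBTAG00000043577, ENSBTAG00000043558, ENSBTAG00000043571 and ENSBTAG00000043546, which were only 1.35 to 1.57 times the other 4 libraries in Strs-titled replicate 1. Strs-titled replicate 2 was below its group mean in all 10 members. In the Ctrl-titled group replicate 5 was above the group mean in all 15 identifiers, at 2.39 to 4.07 times the other 4 libraries in the members, and replicate 3 was below it in all 15.

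**Figure D5:**
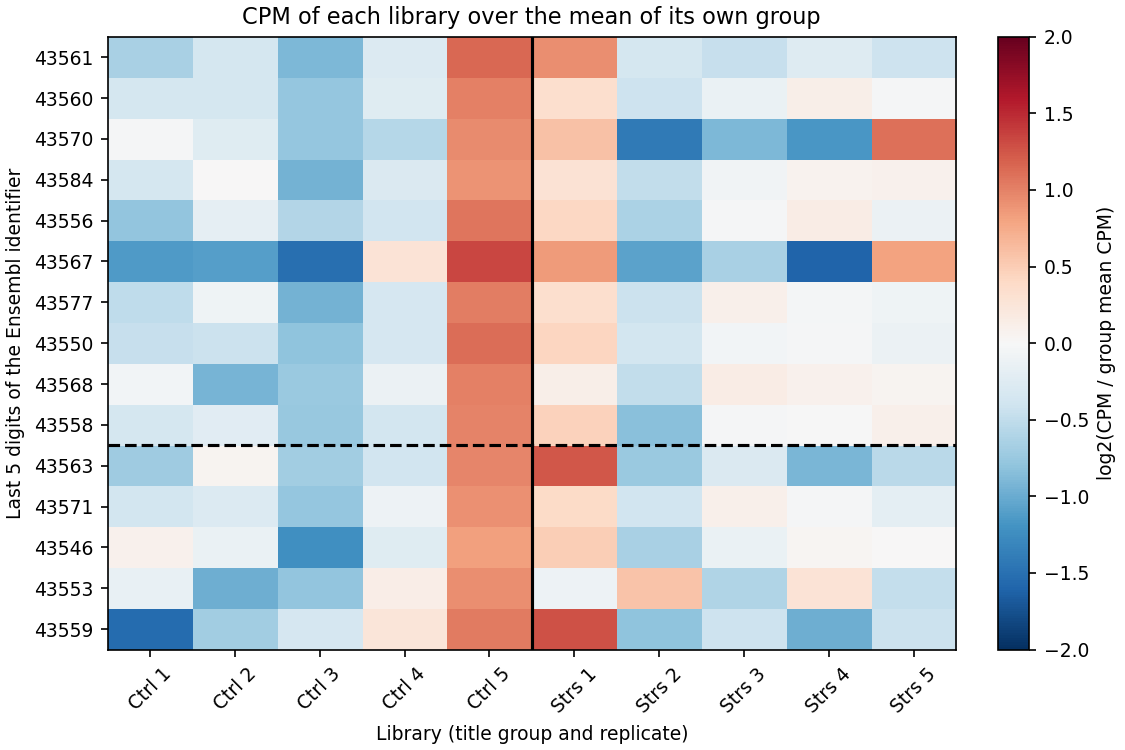
Log2 ratio of each identifier's CPM to the mean of its own group (colour) for the 15 block identifiers (rows; members above the dashed line) in the 10 libraries (columns). Ctrl-titled replicate 5 is above its group mean in all 15 rows, and in Strs-titled replicate 5 ENSBTAG00000043567 and ENSBTAG00000043570 stand out among the members.

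Outside the block, genes were compared with the summed members by their deviations from the group means in log2 CPM, over 10 libraries that share their scaling with the members. Of the 7037 genes that averaged 20 counts or more, ENSBTAG00000000662 was the most alike (Pearson's r = 0.914, n = 10), although its level differed the opposite way. It averaged 249 CPM ± 67.2 (SD, n = 5) in the Ctrl-titled group, against 36.1 CPM ± 8.01 (SD, n = 5) in the Strs-titled group. ENSBTAG00000009923 came next (r = 0.913, n = 10), at 34.9 CPM ± 13.9 (SD, n = 5) and 40.7 CPM ± 11.2 (SD, n = 5). With so many genes compared over 10 libraries, high values of r are a description only. The members' own r with their sum was 0.767 (ENSBTAG00000043570) to 0.960 (ENSBTAG00000043558), and each member is part of that sum.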

How the data were processed

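Paired-end sequencing of 10 skin biopsy samples used unstranded libraries, per the labels' protocols. The authors deposited whole-number read counts per Ensembl gene, not normalized, for 7052 genes; 10 of 10 columns match a library title. Build ARS-UCD1.2, STAR, featureCounts, fastp 0.12.5, FastQC and DESeq2 1.26.0 are named, without roles, per the submitters' processing notes. Not given in the sources used here are the annotation release and the counting settings. Nor is the treatment of reads shared with nuclear copies of mitochondrial sequence, or the rule by which genes were chosen. The name of the deposited matrix holds 'sin ceros' and 'sin RP', Spanish for without zeros and without RP. What was removed under these words is not explained further, and it affects the totals that shares are divided by. Reads from overlapping genes or opposite strands cannot be told apart.

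Members and lists were chosen with earlier results of these data known. The whole table was fitted with edgeR 4.0.16 (R 4.3.3): filterByExpr (7047 genes left), TMM factors, robust two-sided quasi-likelihood F tests, no covariate, Benjamini-Hochberg adjustment over all tested genes, threshold 0.05. The standard error is the log2 fold change divided by the square root of F. Alternatives used other scaling factors, no filter, DESeq2 1.42.0, limma 3.58.1 (voom), a replicate block, and fewer libraries. On simulated data for this comparison, run on 7052 genes, the fit recovered 97 of 100 genes changed 4-fold and 34 of 100 changed 2-fold, and called 6 of 6852 unchanged genes; there most genes were unchanged, unlike here. No libraries of a group were copies (chi-square per degree of freedom at least 3.86). Named genes were all block identifiers and, outside it, those whose deviations from the group means were most like the summed members; the rule took 5, of which 2 are printed because none has a symbol. Lists of nuclear respiratory chain, mitochondrial expression and skin cell type genes have no result, since 0 of the table's identifiers could be paired with a symbol. Protein, rRNA and promoter sequences were not used here.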

Additional observations from a re-analysis of the deposited data

Results flagged for a closer look

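In 13 of 34 groups of 5 values, a gap test set 1 library apart from the rest. For independent values chance alone passes the test in about 1 in 20 groups, and these values share libraries, so the number of passes cannot be set against that rate.

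Ctrl-titled replicate 5 was the high library in 8 of them. It had 1.67% of its table total in the members, against 0.647% in the next library of its group. It had 8370 CPM of ENSBTAG00000043561 (next library 3115), 829 of ENSBTAG00000043560 (348), 1237 of ENSBTAG00000043556 (522), 2709 of ENSBTAG00000043577 (1251), 1105 of ENSBTAG00000043550 (401), 1287 of ENSBTAG00000043558 (549) and 538 of ENSBTAG00000043571 (266).

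Strs-titled replicate 1 was the high library for ENSBTAG00000043561 (13842 CPM, next 6130), ENSBTAG00000043563 (1049, next 362) and ENSBTAG00000043559 (86.2, next 26.6). Strs-titled replicate 2 was the low library for ENSBTAG00000043568, at 2395 CPM against 3469 in the next. The table total of Strs-titled replicate 5, 2453542 counts, lay far below the 6701794 of the library nearest to it.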

How the results depend on the processing

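No block identifier changed direction in any of the 19 alternatives. The 9 members that rose did so in each of them, and the count of members that rose was 9 or 10. ENSBTAG00000043561 and 2 identifiers left out, ENSBTAG00000043546 and ENSBTAG00000043559, crossed the threshold in 5, 1 and 3 alternatives. Between 11 and 13 block identifiers rose, and 1 or 2 fell: 2 without Ctrl-titled replicate 1, without Strs-titled replicate 1, and without Strs-titled replicates 1 and 5 together, an alternative chosen after seeing the data. Over all genes the calls stayed within 1.5 times the 4775 of the standard fit. The replicate numbers gave no sign of pairing (deviations of same-numbered libraries correlated at -0.093 to 0.025, and own numbers matched best for 1 of 5). The replicate block left 9 members risen and 4568 genes called. The difference in the members' mean share, 3.94 percentage points, was 3.42 to 4.35 without 1 library. It was 4.33 against the total outside the 15 highest genes, but that smaller total raises every share. The 4.33 points therefore do not show whether the difference held. The number of members at the same place in both group orders was 0 to 1 without 1 library, and 1 when all 15 identifiers were ranked. Few counts per library limit ENSBTAG00000043567 (6 to 52), ENSBTAG00000043559 (11 to 88) and ENSBTAG00000043568 (22 to 101) in Ctrl-titled libraries.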
